A study of Mus musculus with 6 samples.

Results

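The genes described here encode proteins of the nucleolus that make ribosomes, together with subunits and initiation factors of RNA polymerase I. They were taken from a list of 38 gene symbols. Of these, 37 were found in the deposited tables, among 24732 genes with FPKM values and 24813 genes with counts. Noc2l matched no accession and was not analysed here.

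The values came from RNA-seq of a mouse culture labelled FGSC (female germline stem cell), of strain C57BL/6 and more than 20 passages, grown on inactivated STO fibroblast feeder cells in both groups, in a serum medium with leukemia inhibitory factor, EGF, bFGF and GDNF. A control group (n = 3) was compared with a shCTCF group (n = 3), in which a short hairpin RNA (shRNA), delivered by lentivirus and followed by puromycin selection, targeted CTCF. CTCF is a DNA-binding protein that holds chromatin loops and domain borders in place. The comparison asks how transcript levels changed when CTCF was reduced. The labels gave 3 numbered replicates a group and did not say whether these came from separate cultures, so the p-values measure the spread between these samples, which may be technical. The shRNA was a single sequence in a single cell line, and the labels did not say what the control cells received.

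Ribosome production starts in the nucleolus, where RNA polymerase I transcribes the ribosomal DNA repeats into a long precursor RNA. UBF, encoded by Ubtf, holds the repeats in an active state, and TIF-IA, encoded by Rrn3, brings the polymerase to their promoters. Small nucleolar RNPs then guide chemical changes of the precursor. Box C/D particles carry the methyltransferase fibrillarin, and box H/ACA particles carry the pseudouridine synthase dyskerin. A large set of assembly factors cuts and folds the RNA into precursors of the small and the large ribosomal subunit. These genes are highly active in growing cells.

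FPKM (fragments scaled to transcript length and to the mapped fragments of a sample) is a level per transcript length, so it can be compared between genes. Counts are not scaled to length and were used as a check. They are given below as CPM, scaled to the summed counts of the genes tested in a sample and to its TMM factor. This factor sets the samples level with each other. The total count per sample was 1686052 to 7044272, and control replicate 2 was the smallest. This library also stood apart from the other controls: the chi-square statistic per degree of freedom was 8.17 and 7.47 against them, 2.85 between the other controls, and 2.07 to 3.87 among the shCTCF samples, whereas pairs from different groups gave 93.0 to 212.6. A count of 0 allowed up to 0.426 to 1.78 CPM, for counting error only. Ctcf itself had FPKM values of 58.2, 56.1 and 53.5 in control cells, against 0.740, 0.550 and 0.629 in shCTCF cells (log2 fold change −5.12, SE 0.09, limma adjusted p = 1.1e-08).

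The labelled cell type was checked against marker genes. Of 9 germline markers, 2 had a mean of at least 1 FPKM. Ddx4, Dazl, Pou5f1, Dppa3 and Gfra1, which define germ cells or germline stem cells, were listed at 0 in every control sample. Of 10 mast cell and myeloid markers, 7 had a mean of at least 1 FPKM, and their sum was 1592 to 1637 FPKM in control cells, against 1623 to 1682 in shCTCF cells. The sum was led by Gata2 and Kit, and the leukocyte gene Ptprc was at 83.7 to 117 FPKM in the controls. Of the same 10 markers, Fcer1a was listed at 0 in all samples and Ms4a2 was at most 0.160 FPKM. Tpsb2 was listed at 0 in the controls and was at 0.305 to 0.557 FPKM in shCTCF cells. The marker levels thus went against the FGSC label, and the groups are named below by their labels only. Some markers also differed between the groups. Ctsg, a granule protease gene, was at 131 to 169 FPKM in control cells, against 1.99 to 2.53 in shCTCF cells, while Hdc, which makes histamine, was at 4.07 to 4.49 and 79.7 to 94.9. Cpa3 was at 215 to 316 FPKM in control cells, against 79.3 to 103 in shCTCF cells, while Kit was at 541 to 612 and 771 to 800. The mast cell and myeloid sum was thus alike in both groups although single markers moved both ways. The sum of 14 fibroblast markers, 6 of them with a mean of at least 1 FPKM, was 12.5 to 13.1 in control cells, against 23.6 to 24.7 in shCTCF cells. This rise came mostly from Col6a1 (0.0909 to 0.187 against 14.9 to 15.7 FPKM), while Pdgfrb (5.60 to 7.01 against 2.05 to 2.33), Fn1 (2.11 to 2.33 against 0.0237 to 0.0294) and Dcn (2.59 to 2.79, and listed at 0 in all shCTCF samples) were lower. Col1a2 was at or near 0 and Col3a1 was listed at 0 in all samples. The germline sum was 19.5 to 19.8 and 25.7 to 27.0. It was higher mainly through Ifitm3 (0 to 1.21 against 10.4 to 11.1 FPKM), whereas Etv5 (16.7 to 17.8 against 14.1 to 14.5) and Zbtb16 (1.15 to 1.99 against 0.281 to 0.291) were lower. The sum of 7 granulosa and theca markers was at most 0.447 in any sample. The part of these differences in the results was not tested. In addition, fewer cells of a type and less RNA per cell cannot be told apart in bulk samples.

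Since all genes measured fell together, as described below the sequences, the DNA before their transcription starts was searched for motifs, and a few stretches are shown. The sequences are from RefSeq, build GRCm38.p6, in which windows of 250 bases before and 50 after the start were given for 33 of the 38 listed genes. Dkc1 (chrX:75095754-75095853, + strand), Gar1 (chr3:129831397-129831496, − strand) and Ncl (chr1:86359456-86359555, − strand) are shown, with the 100 bases before the start, because they had the largest falls among the genes with a window. Neither motif named below occurred in their windows.
Dkc1: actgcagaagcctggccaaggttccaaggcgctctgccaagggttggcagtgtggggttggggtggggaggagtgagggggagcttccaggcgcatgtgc
Gar1: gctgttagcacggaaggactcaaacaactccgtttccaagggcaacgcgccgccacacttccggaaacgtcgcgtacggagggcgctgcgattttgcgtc
Ncl: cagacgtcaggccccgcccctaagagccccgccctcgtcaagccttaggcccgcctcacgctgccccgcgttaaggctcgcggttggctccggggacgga
The E-box CACGTG, the letters bound by MYC and related factors and read the same on both strands, was found in the windows of 5 of the 33 genes (15.2%) and in 8.09% of all 27025 genes with a window. The 33 genes include Noc2l, which was not measured. Among other ribosome biogenesis genes, described further below, the E-box was found in 22 of 111 with a window (19.8%). It was present in Nop2 (chr6:125131783-125131882, + strand, 60 bases before the start) and in Rrn3 (chr16:13780449-13780698, + strand, 215 and 48 bases before the start). The capitals mark the E-box in both.
Nop2: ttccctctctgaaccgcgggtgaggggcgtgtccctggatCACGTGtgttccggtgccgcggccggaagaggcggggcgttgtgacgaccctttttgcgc
Rrn3: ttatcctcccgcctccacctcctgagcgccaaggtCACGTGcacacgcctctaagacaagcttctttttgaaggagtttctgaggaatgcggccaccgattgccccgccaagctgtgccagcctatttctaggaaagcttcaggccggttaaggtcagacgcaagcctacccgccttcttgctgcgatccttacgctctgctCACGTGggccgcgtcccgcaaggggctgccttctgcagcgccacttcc
In Utp20, Pes1 and Wdr43 the E-box lay after the start, and that part is not shown. The CTCF core consensus was searched on both strands. It occurred in Noc3l alone among the 33 genes (3.03%), compared with 0.636% of all genes with a window and 2 of the 111 other ribosome biogenesis genes (1.80%). The match, in capitals, began 61 bases before the start of Noc3l (chr19:38819238-38819337, − strand).
Noc3l: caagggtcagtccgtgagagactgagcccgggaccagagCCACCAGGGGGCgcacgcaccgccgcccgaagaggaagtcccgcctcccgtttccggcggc
A match describes the letters of a window and is not evidence of binding. The log2 fold changes on FPKM were −0.82 for Nop2, −0.38 for Rrn3 and −0.65 for Noc3l. Those of Pes1, Wdr43 and Utp20 were −1.04, −0.74 and −0.69, beside a median of −0.91 over the 37 genes. A relation between the motifs and the size of the fall was not tested.

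All 37 genes had lower FPKM in the shCTCF samples, and each passed the test (limma on log2(FPKM + 1), Benjamini-Hochberg adjusted p under 0.05 over 9976 genes). No gene of the list was higher, also at an unadjusted p under 0.05 (0 genes). For comparison, 44.2% of all genes tested were called lower and 28.8% higher. In all 37 genes the 3 shCTCF values lay under the 3 control values, which held for 45.8% of all genes tested. The median log2 fold change of the 37 genes was −0.91 (range −2.60 to −0.38), compared with −0.17 over all genes tested. A call with at least a 2-fold fall on this scale was made for 16 of the 37 genes and for 14.9% of all genes. The scale understates the change of low genes, and the ratio of the group means reached 2 in 17 genes, with a median of 1.92. Over all genes tested, this ratio reached 2 in 18.7%, and its median was 1.15. All 37 genes passed the filter of a mean of 1 FPKM, and the lowest single value was 2.96 FPKM, in Polr1e. Without control replicate 2, all 37 calls were made again and the median was −0.93.

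**Figure D1:**
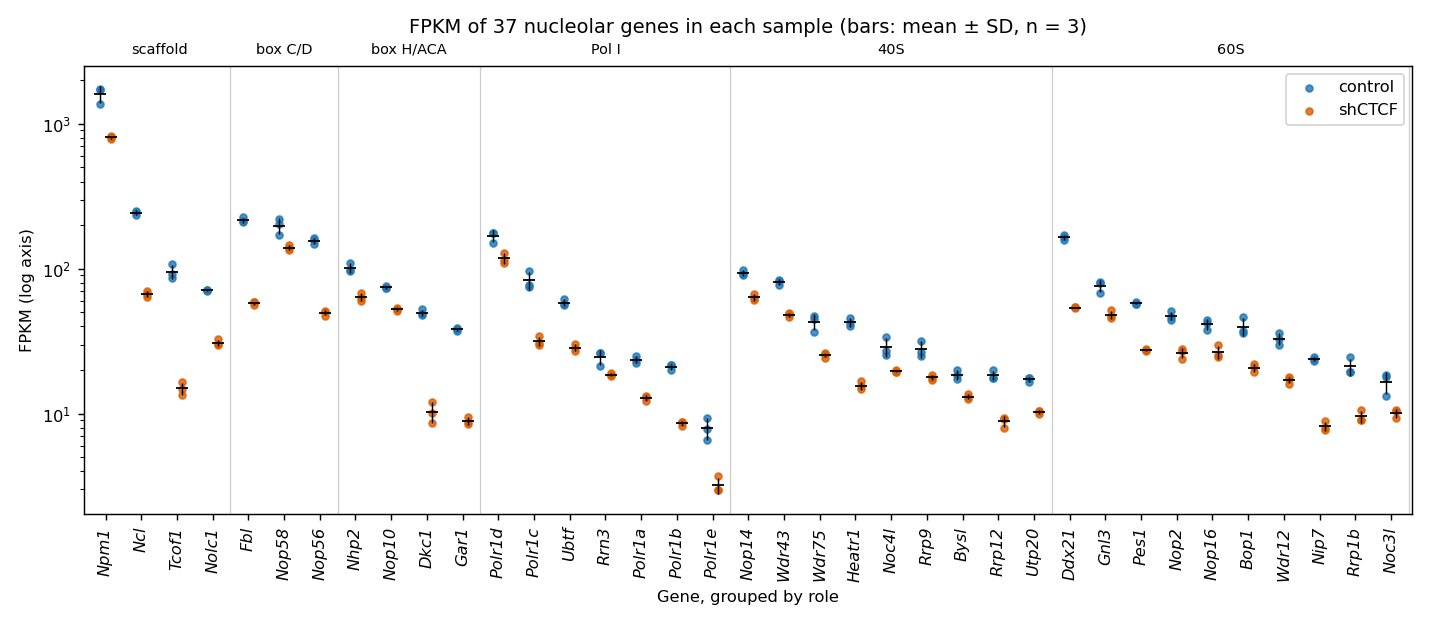
FPKM (log axis) of the 37 genes in each sample, grouped by role, with 3 control samples (blue) and 3 shCTCF samples (orange) per gene. Black bars give the mean ± SD, and in every gene the 3 shCTCF points lie under the 3 control points.

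The summed FPKM of the 37 genes was 4222, 3916 and 4276 in control cells, against 2004, 1961 and 2024 in shCTCF cells. The groups were thus far apart compared with the spread within each. The sum made up 0.921% ± 0.0556 (SD, n = 3) of all FPKM in control cells, against 0.440% ± 0.00810 in shCTCF cells, a 2.09-fold difference. Npm1 was by far the highest gene. Without it, the sum was 2526 ± 21.1 in control cells, against 1188 ± 12.9 in shCTCF cells, a 2.13-fold difference, so that the fall of the sum did not rest on this gene. The level of a gene in the controls and its log2 fold change had a Spearman correlation of −0.18 across the 37 genes, which share the same libraries.

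The 4 abundant scaffold and chaperone genes of the nucleolus fell by a median of 1.52 on the log2 scale. Tcof1 encodes treacle, which links RNA polymerase I and UBF to the ribosomal DNA, and it had the largest fall of all 37 genes. It was at 86.9, 108 and 91.8 FPKM in control cells, against 13.6, 16.4 and 14.8 in shCTCF cells, a 6.40-fold difference of the means (log2 fold change −2.60, SE 0.10, limma adjusted p = 5.2e-07). The highest shCTCF value was therefore far under the lowest control value, and both of its accessions were lower.

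Ncl (chr1:88241294-88256030 in mm9, 14 exons) encodes nucleolin, an RNA-binding protein of early precursor processing. It was at 251, 235 and 248 FPKM in control cells, against 66.9, 63.7 and 70.0 in shCTCF cells (3.66-fold, log2 fold change −1.86, SE 0.06, limma adjusted p = 2.1e-07). Its accession had 8257 exon bases, on which its level per length depends. Nolc1, whose protein binds small nucleolar RNPs, fell from 71.1 ± 0.965 to 30.9 ± 1.45 FPKM (SD, n = 3; log2 fold change −1.18). Npm1 encodes nucleophosmin, a chaperone of the outer nucleolus. With 1717, 1369 and 1751 FPKM in control cells, against 812, 788 and 826 in shCTCF cells, it fell 1.99-fold (log2 fold change −0.99, SE 0.10, limma adjusted p = 4.4e-05). Control replicate 2 was the lowest control for Npm1 and was still well above the shCTCF samples. The ratio of Ncl to Npm1 was 0.153 ± 0.0164 in control cells, against 0.0827 ± 0.00194 in shCTCF cells. Nucleolin transcripts were thus lower also relative to nucleophosmin transcripts.

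Of the core proteins of box C/D particles, 3 were on the list, and their genes did not fall to the same degree. Fbl (chr7:28954767-28964288 in mm9, 9 exons), which encodes the methyltransferase, was at 212, 226 and 211 FPKM in control cells, against 58.6, 56.3 and 59.0 in shCTCF cells (3.74-fold, log2 fold change −1.88, SE 0.06, limma adjusted p = 1.6e-07). Nop56, a core protein that pairs with Nop58, was at 148, 162 and 157 FPKM and at 50.4, 51.2 and 47.5 FPKM (3.14-fold, log2 fold change −1.63, SE 0.06, limma adjusted p = 4.5e-07). Nop58 itself was at 220, 171 and 203 FPKM in control cells, against 135, 138 and 146 in shCTCF cells (1.42-fold, log2 fold change −0.50, SE 0.10, limma adjusted p = 0.00196). The 95% intervals of the log2 fold change were −2.02 to −1.75 for Fbl and −0.72 to −0.27 for Nop58. Fbl and Nop58 were thus at like levels in the controls, with a ratio of 1.11 ± 0.187, and the ratio was 0.416 ± 0.0172 in the shCTCF samples. The Fbl to Nop56 ratio moved less, from 1.39 ± 0.0438 to 1.17 ± 0.0707.

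Transcripts of the box H/ACA core proteins showed a like split, in which Dkc1 and Gar1 fell more than Nhp2 and Nop10. Dkc1, which encodes dyskerin, was at 48.5, 47.9 and 52.4 FPKM in control cells, against 12.04, 8.66 and 10.1 in shCTCF cells (4.83-fold, log2 fold change −2.18, SE 0.11, limma adjusted p = 1.8e-06). Gar1 was at 36.9, 38.7 and 38.8 FPKM and at 9.54, 8.52 and 8.75 FPKM (4.27-fold, log2 fold change −1.98, SE 0.07, limma adjusted p = 3.6e-07). In contrast, Nhp2 went from 101.4 ± 7.35 to 63.6 ± 4.03 FPKM (log2 fold change −0.66), and Nop10 from 74.6 ± 1.58 to 52.7 ± 1.48 FPKM (log2 fold change −0.50). The ratio of Gar1 to Nop10 was 0.499, 0.526 and 0.508 in control cells, against 0.181, 0.167 and 0.162 in shCTCF cells. Likewise, the ratio of Dkc1 to Nhp2 was 0.494, 0.498 and 0.477 in control cells, against 0.177, 0.144 and 0.161 in shCTCF cells. The groups did not overlap in either ratio. Dkc1 and Nhp2, unlike Gar1 and Nop10, could be tested on FPKM only, for the reason given further below. The ratios given here and below, and that of Ncl to Npm1, were chosen after the values were seen and are given as a description, without a test.

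**Figure D2:**
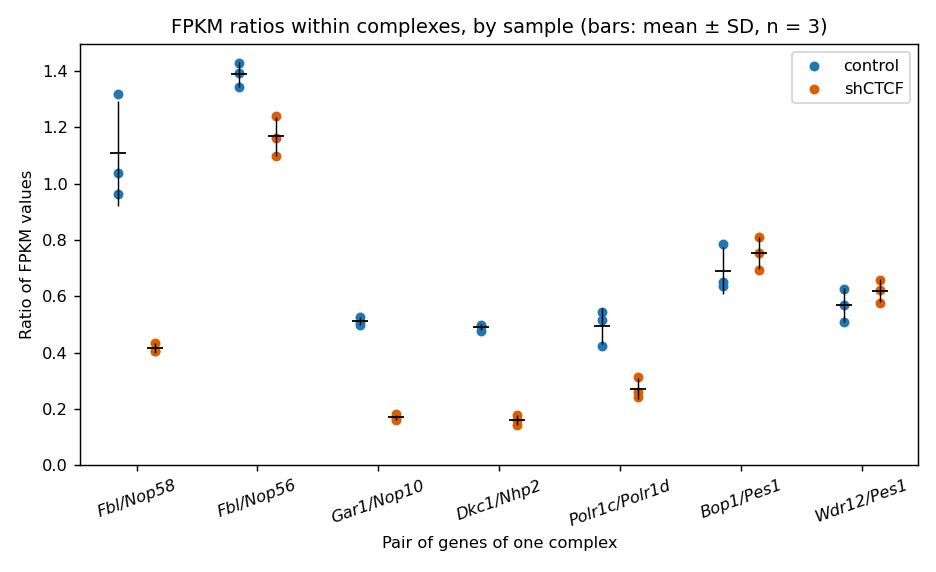
Ratio of the FPKM values of pairs of genes whose proteins share a complex, for each control sample (blue) and shCTCF sample (orange), with mean ± SD (n = 3). Fbl/Nop58, Gar1/Nop10, Dkc1/Nhp2, Polr1c/Polr1d and, by less, Fbl/Nop56 were lower in all shCTCF samples, whereas the groups overlapped for Bop1/Pes1 and Wdr12/Pes1.

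The 7 genes of RNA polymerase I and its initiation factors fell by a median of 1.01 on the log2 scale. Polr1a encodes the largest subunit and Polr1b the next largest, and together they form the catalytic centre. Polr1a was at 23.4, 24.9 and 22.3 FPKM in control cells, against 13.1, 13.3 and 12.2 in shCTCF cells (1.83-fold, log2 fold change −0.83, SE 0.08, limma adjusted p = 3.8e-05). Polr1b was at 21.6, 21.7 and 20.0 FPKM and at 8.77, 8.24 and 8.77 FPKM (2.45-fold, log2 fold change −1.20, SE 0.08, limma adjusted p = 4.6e-06). Polr1e, which encodes a subunit particular to RNA polymerase I, had the lowest level of the 37 genes and fell from 7.95 ± 1.37 to 3.21 ± 0.410 FPKM (log2 fold change −1.08).

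Polr1c and Polr1d encode a pair of subunits that RNA polymerases I and III share. Polr1c was at 77.6, 96.9 and 75.2 FPKM in control cells, against 30.9, 34.3 and 30.0 in shCTCF cells (2.62-fold, log2 fold change −1.36, SE 0.11, limma adjusted p = 1.5e-05). Polr1d was at 151, 178 and 177 FPKM and at 128, 109 and 115 FPKM (1.43-fold, log2 fold change −0.51, SE 0.09, limma adjusted p = 0.00129). Only one of the 2 Polr1d accessions was lower in all shCTCF samples: NM_009087 was at 117, 158 and 132 FPKM in control cells, against 91.5, 85.5 and 82.9 in shCTCF cells. The other accession, NM_181730, was at 33.2, 19.1 and 45.7 FPKM and at 36.97, 23.9 and 32.5 FPKM, and its groups overlapped. On counts scaled by TMM the groups of Polr1d overlapped too, at 180, 197 and 221 CPM against 184, 167 and 161 CPM. The log2 fold change was −0.23 (edgeR adjusted p = 0.0464), and most alternatives did not keep that call. The overlap depends on this scaling: with library size only, the log2 fold change was −0.40 (edgeR adjusted p = 0.0017).

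The factors that start transcription of ribosomal DNA differed in size of change. Ubtf was at 57.5, 62.2 and 55.8 FPKM in control cells, against 27.1, 28.4 and 30.2 in shCTCF cells (2.05-fold, log2 fold change −1.01, SE 0.07, limma adjusted p = 9.5e-06). On counts, where 98.2% of its exon bases were shared among its own 12 accessions, Ubtf had 164 counts in all and did not pass the test (log2 fold change −0.40, SE 0.28, edgeR adjusted p = 0.225). Rrn3 had the smallest change of all 37 genes, with 26.3, 21.4 and 26.4 FPKM in control cells, against 18.3, 18.6 and 19.0 in shCTCF cells (1.33-fold, log2 fold change −0.38, SE 0.10, limma adjusted p = 0.00712). Its lowest control was near its highest shCTCF sample, and its groups overlapped on counts scaled by TMM. The log2 fold change on counts was −0.25 (edgeR adjusted p = 0.0345), a call that 8 alternatives did not keep. With library size only it was −0.42 (edgeR adjusted p = 0.00159). The call of Rrn3 on FPKM was lost after scaling all samples to 1 common median (−0.21, adjusted p = 0.0723).

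Assembly factors of the small ribosomal subunit fell in all 9 genes tested, by a median of 0.69 on the log2 scale. Heatr1, a large protein of the complex that binds the growing precursor, stood out from the other 8. It was at 45.8, 40.04 and 42.0 FPKM in control cells, against 15.4, 16.7 and 14.8 in shCTCF cells (2.73-fold, log2 fold change −1.39, SE 0.08, limma adjusted p = 3.2e-06). Rrp12 followed, with 18.5 ± 1.36 FPKM in control cells, against 8.85 ± 0.778 in shCTCF cells (log2 fold change −0.99). Heatr1 was the only gene of this group with a called fall of at least 2-fold on this scale. Wdr43 and Wdr75, which act in the same early complex as Heatr1, changed by −0.74 and −0.73 on the log2 scale, and Utp20 by −0.69. Rrp9, a protein of the U3 particle, changed by −0.61. Nop14 was at 93.3 ± 4.09 and 63.7 ± 3.31 FPKM (log2 fold change −0.55), and its partner Noc4l was at 28.7 ± 4.31 and 19.7 ± 0.369 FPKM (−0.51). Bysl, which acts late in assembly, was at 17.3, 20.1 and 18.4 FPKM in control cells, against 13.6, 12.6 and 13.0 in shCTCF cells (log2 fold change −0.48, SE 0.08, limma adjusted p = 0.00116).

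Of 11 listed factors of the large subunit, 10 were tested, and these fell by a median of 0.90 on the log2 scale. Ddx21, an RNA helicase of the nucleolus, was at 166, 171 and 157 FPKM in control cells, against 54.1, 53.3 and 54.5 in shCTCF cells (3.05-fold, log2 fold change −1.59, SE 0.06, limma adjusted p = 3.5e-07). Nip7, which acts in precursor processing, was at 23.0, 23.8 and 24.6 FPKM and at 8.03, 7.73 and 8.89 FPKM (2.90-fold, log2 fold change −1.43, SE 0.08, limma adjusted p = 2.6e-06). Rrp1b was at 21.2 ± 2.86 and 9.58 ± 0.902 FPKM (log2 fold change −1.06). In Ddx21 and Nip7 the groups were thus far apart compared with their spread.

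Pes1, Bop1 and Wdr12 encode the 3 proteins of the PeBoW complex, which is needed for processing of the large subunit precursor. Pes1 was at 57.3, 58.8 and 57.2 FPKM in control cells, against 27.7, 27.1 and 28.0 in shCTCF cells (log2 fold change −1.04, SE 0.06, limma adjusted p = 2.8e-06). Bop1 was at 37.3, 46.3 and 36.3 FPKM and at 20.9, 22.0 and 19.4 FPKM (log2 fold change −0.91, SE 0.11, limma adjusted p = 1.2e-04). Wdr12 was at 35.9, 29.8 and 32.6 FPKM and at 17.3, 17.9 and 16.1 FPKM (log2 fold change −0.90, SE 0.09, limma adjusted p = 4.7e-05). Unlike the pairs described above, the ratio of Bop1 to Pes1 overlapped between the groups, with 0.691 ± 0.0834 in control cells, against 0.753 ± 0.0581 in shCTCF cells, as did that of Wdr12 to Pes1, with 0.568 ± 0.0599 and 0.620 ± 0.0416. The Wdr12 level was divided over 3 accessions whose shares varied between samples, and the call was lost when only the accession with the highest mean was used (log2 fold change −0.71, adjusted p = 0.15).

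The other factors of the large subunit had smaller changes. Nop2, an RNA methyltransferase, was at 47.3 ± 3.22 and 26.3 ± 2.19 FPKM (log2 fold change −0.82). Gnl3 encodes nucleostemin, a GTPase of stem and cancer cells, and was at 81.5, 67.9 and 79.4 FPKM in control cells, against 47.2, 45.8 and 51.8 in shCTCF cells (log2 fold change −0.65, SE 0.09, limma adjusted p = 3.2e-04). Noc3l was at 16.5 ± 2.86 and 10.1 ± 0.728 FPKM (−0.65), and Nop16 at 41.5 ± 3.54 and 26.6 ± 2.73 FPKM (−0.63). The 10 genes therefore ranged from −1.59 to −0.63.

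**Figure D3:**
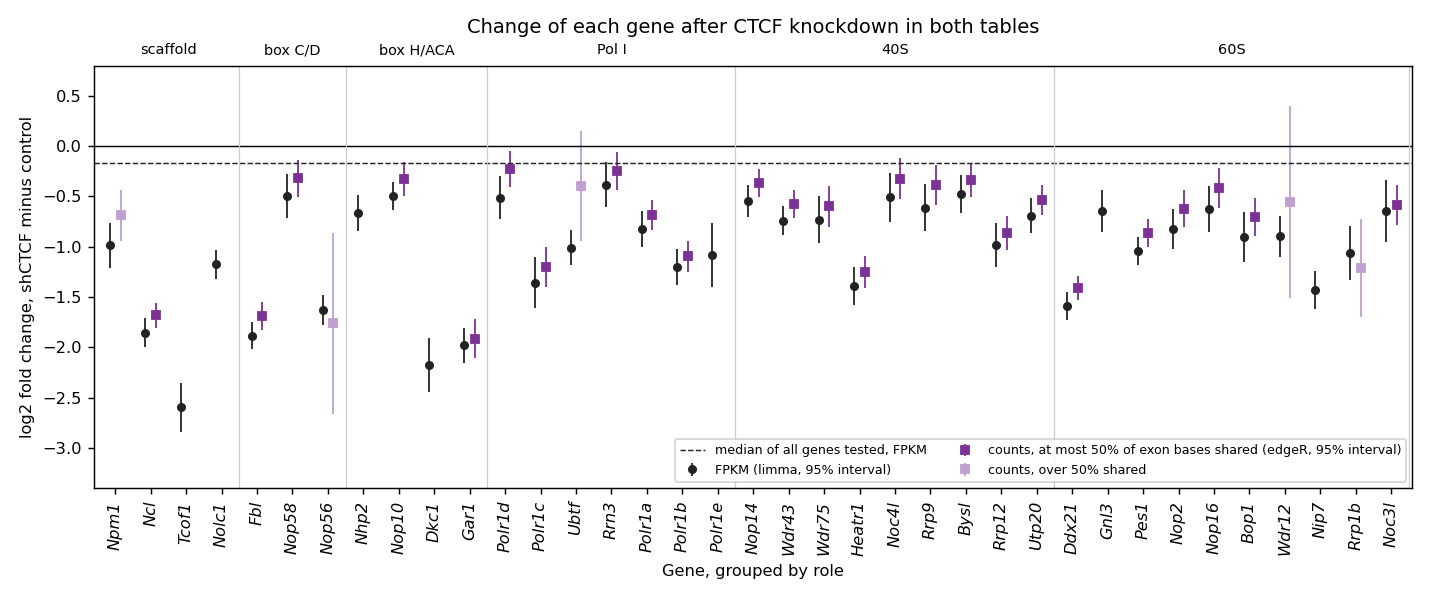
Log2 fold change (shCTCF minus control) of each gene on FPKM (black circles, limma with 95% interval) and on counts (squares, edgeR with approximate 95% interval). The dashed line is at the FPKM median of all genes tested. All 37 FPKM intervals lie under 0, and pale squares mark genes with over 50% of their exon bases shared between accessions, where intervals on counts are wide.

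The count table held the same direction for the genes it could measure. Of the 37 genes, 30 passed the count filter, and 28 of these were called lower and 0 higher (edgeR, adjusted p under 0.05 over 7341 genes, and 0 higher at an unadjusted p under 0.05 or by DESeq2), while 34.3% of all genes tested were called lower and 34.8% higher. The median log2 fold change of the 30 genes was −0.61, compared with −0.02 over all genes tested. Of the 30 genes, 9 were called with a fall of at least 2-fold, as were 1028 of all 7341 genes tested. The genes not called were Ubtf and Wdr12 (log2 fold change −0.56, edgeR adjusted p = 0.327). Across the 30 genes, which share libraries, the log2 fold changes on counts and on FPKM had a Pearson correlation of 0.967. The values on counts were closer to 0 for all of the 30 genes except Nop56 and Rrp1b. For example, Fbl was at −1.69 on counts and −1.88 on FPKM, Gar1 at −1.91 and −1.98, Ncl at −1.68 and −1.86, and Heatr1 at −1.25 and −1.39. Without control replicate 2, 28 genes were called lower on counts and the median was −0.65.

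The genes that could not be measured on counts shared their exons. In the count table, fragments lying on exons of several accessions were dropped, whether those accessions belonged to the same gene or to a neighbour. In 12 of the 37 genes, 90.8% to 100% of the exon bases were shared in this way. Their total over the 6 samples was 0 to 3539 counts (median 16), and 3 of them (Nhp2, Nolc1 and Nip7) had no count at all. In the other 25 genes at most 34.2% of the exon bases were shared, all 25 were tested, and the totals were 2034 to 80603 counts. Nop56 shared exon bases with Idh3b, Dkc1 with Mpp1, Nhp2 with Rmnd5b, Polr1e with Fbxo10, Wdr12 with Carf and Gnl3 with Glt8d1, apart from their own accessions. Dkc1, Nhp2, Nolc1, Tcof1, Polr1e, Nip7 and Gnl3 were thus tested on FPKM only. Tcof1, with the largest fall on FPKM, had 16 counts in all. For these genes the result rests on how Cufflinks divided fragments between overlapping accessions. The median log2 fold change on FPKM was −1.07 in the 12 genes and −0.74 in the other 25.

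**Figure D4:**
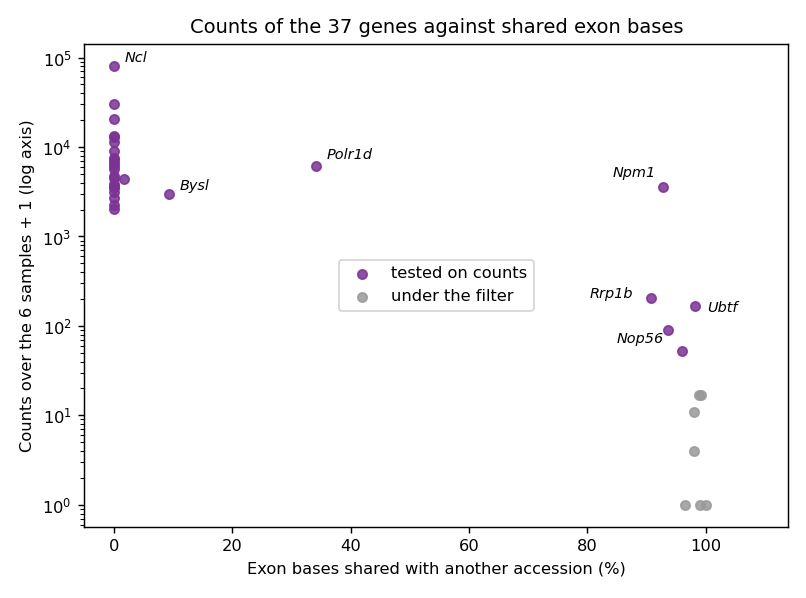
Total counts of each of the 37 genes over the 6 samples, plus 1 (log axis), against the percentage of its exon bases shared with another accession; purple points were tested on counts and grey points were under the filter. The 25 genes at 34.2% or less have 2034 to 80603 counts, and the 12 genes at 90.8% or more have 0 to 3539.

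Other genes of ribosome production, from lists of known factors, were mostly lower too, with exceptions. Of 133 such genes, 99 (74.4%) were called lower, 6 higher and 28 neither on FPKM, with a median log2 fold change of −0.60. Over all genes tested, 44.2% were called lower and 28.8% higher, with a median of −0.17. A called fall of at least 2-fold was seen in 35 of the 133 genes and in 14.9% of all genes. On counts, 107 of the 133 were tested, of which 67 (62.6%) were lower and 9 higher. Of all genes tested on counts, 34.3% were lower and 34.8% higher. Among 45 further factors of the small subunit, 37 were lower and 0 higher (median −0.69), led by Emg1 (−1.53) and Nat10 (−1.50), both RNA-modifying enzymes, and Utp6 (−1.44). By limma 1 of these 45 genes was higher at an unadjusted p under 0.05, and on counts edgeR and DESeq2 both called Esf1 and Riok2 higher. Among 48 further factors of the large subunit, 35 were lower and 4 higher (median −0.57). Nle1 (−2.09), Ppan (−1.75) and Rrs1 (−1.47) fell most.

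The genes that rose were few. Ddx24, a helicase, was at 21.0, 25.8 and 20.9 FPKM in control cells, against 44.5, 43.9 and 41.3 in shCTCF cells (log2 fold change 0.91, SE 0.09, limma adjusted p = 6.4e-05). Nmd3, the export adaptor of the large subunit, was at 28.3, 15.8 and 25.5 FPKM and at 31.7, 37.1 and 39.0 FPKM (0.64, adjusted p = 0.0198), a call lost without shCTCF replicate 2 or 3 (adjusted p = 0.0612 and 0.0697). Without control replicate 2, the lowest control for Nmd3, its change was 0.40, and that of Rbm34, described next, was 0.21. Sbds, which acts in the last steps of large subunit maturation and was named after its value was seen, rose by 0.35, and Rbm34 had a change of 0.37 with an adjusted p of 0.0467 that most alternatives did not keep.

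Among 24 genes of exosome processing and particle assembly, 19 were lower and 0 higher by limma (median −0.83). Over all genes tested, 44.2% were called lower (median −0.17). Of the 24 genes, 1 was higher at an unadjusted p under 0.05, and edgeR and DESeq2 called Naf1 higher on counts. Ruvbl2 and Ruvbl1, ATPases that help to assemble small nucleolar RNPs, went from 148 ± 8.43 to 29.5 ± 3.00 FPKM (log2 fold change −2.29) and from 91.7 ± 8.32 to 27.8 ± 0.988 FPKM (−1.68). Exosc8, a subunit of the exosome, changed by −1.82. These assembly ATPases thus moved in the same direction as all listed core genes of the particles: Fbl, Nop56, Nop58, Dkc1, Gar1, Nhp2 and Nop10. A link between these changes was not tested.

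The remaining RNA polymerase I genes were mixed. Of 16 further subunits and factors, 8 were lower, 2 higher and 6 neither (median −0.23), near the 44.2% lower and the median of −0.17 over all genes tested, and none had a called fall of 2-fold on FPKM, whereas on counts Polr2h did. Polr2e (−0.84), a subunit shared by the nuclear polymerases, Znrd1 (−0.69), a subunit of RNA polymerase I, and Taf1c (−0.67), of the promoter factor SL1, were lower. Polr2l, another shared subunit, was at 9.73, 6.70 and 8.79 FPKM in control cells, against 15.7, 17.0 and 14.9 in shCTCF cells (log2 fold change 0.86, SE 0.13, limma adjusted p = 5.6e-04). Taf1d, also of SL1, was at 67.0, 55.5 and 57.6 FPKM and at 91.0, 95.1 and 79.0 FPKM (0.55, SE 0.10, adjusted p = 0.0014), and its change was 1.36 when only the accession with the highest mean was used. Subunits of the same polymerase and of the same promoter factor thus changed in opposite directions.

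RNA polymerase III, which makes the remaining ribosomal RNA and transfer RNAs, was represented by 20 genes tested. Of these, 10 were lower, 2 higher and 8 neither, with a median of −0.27. This is near the 44.2% lower and the median of −0.17 over all genes tested. Gtf3a, which starts transcription of the ribosomal RNA made by this polymerase, was at 79.6 ± 9.39 and 32.6 ± 3.99 FPKM (log2 fold change −1.26), and Gtf3c5 (−1.25) and Polr3e (−1.07) followed. Polr3g was at 5.07, 3.90 and 4.20 FPKM in control cells, against 6.44, 6.90 and 7.76 in shCTCF cells (0.58, limma adjusted p = 0.00262). Its paralogue Polr3gl, named after its value was seen, changed by −1.003. Polr3g and Bdp1 were also called higher on counts. Bdp1 had a change of 0.22 with an adjusted p of 0.0442, which 8 alternatives did not keep.

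**Figure D5:**
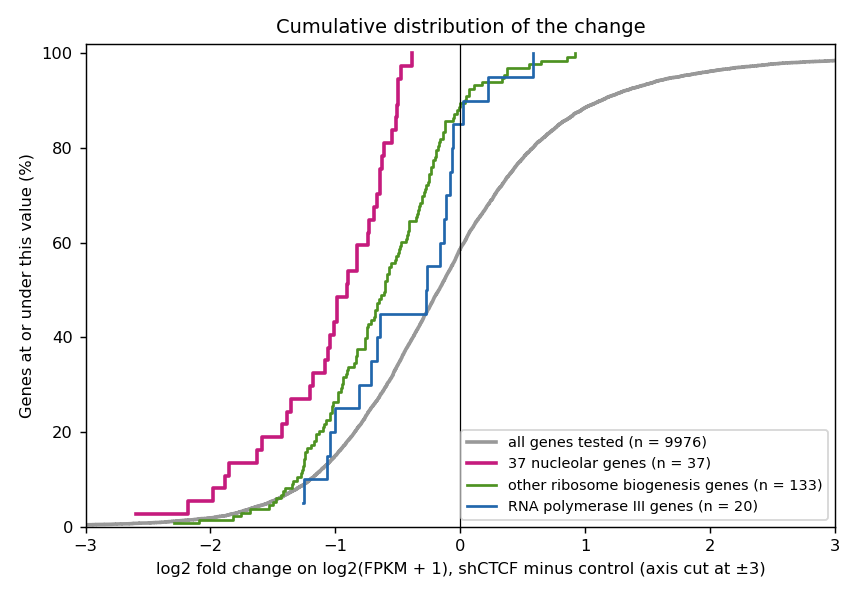
Cumulative percentage of genes at or under each log2 fold change on log2(FPKM + 1), shCTCF minus control, for all 9976 genes tested, the 37 nucleolar genes, 133 other ribosome biogenesis genes and 20 RNA polymerase III genes. The curve of the 37 genes reaches 100% at −0.38, while those of the other lists extend past 0.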

How the data were processed

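RNA-seq of 3 control and 3 shCTCF samples was analysed, and none was left out. Per the labels, stranded mRNA libraries were aligned with HISAT2 to build mm9. The authors counted whole fragments with featureCounts 1.6.2, and the deposited counts are per RefSeq accession, unstranded and not normalized, so reads of genes that overlap on opposite strands cannot be told apart. The deposited FPKM values were calculated by the authors with Cufflinks 2.2.1 and scale fragments to transcript length and mapped fragments. The total count per sample was 1686052 to 7044272. No value column was without a sample (0 columns).

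Accessions were given symbols from an NCBI RefSeq table of GRCm38.p6, used for names only (41186 of 41388 accessions with counts and 41685 of 41876 FPKM entries matched). Accessions without a symbol held at most 0.603% of a sample's counts. Values were summed per symbol. The FPKM test used log2(FPKM + 1) of genes whose mean reached 1 FPKM, by limma 3.58.1 (eBayes with trend). Counts were tested with edgeR 4.0.16 (TMM, filterByExpr, quasi-likelihood) in R 4.3.3. Tests were two-sided, with Benjamini-Hochberg adjustment over all genes tested and a threshold of 0.05. They were also run on simulated data in which far fewer genes changed than were called here, so the scaling was not checked by it. Exon sharing and gene positions were taken from the mm9 exons in the count table, counted from 1. Alternatives covered the pseudocount, filters, scaling, DESeq2 1.42.0, shared exons, thinning, a replicate block and leaving out each replicate. Same-numbered samples did not deviate together (correlations −0.04, 0.02 and 0.04), so replicate numbers were not used as pairs in the tests reported. The listed genes, the other lists and the markers were chosen with earlier results of these data known. All listed genes, Ctcf, and in each other list up to 3 genes that fell most and 3 that rose most among called genes without overlap are named. No protein sequences were used here. A gene of these lists is not reported here.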

Additional observations from a re-analysis of the deposited data

How the results depend on the processing

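Of 195 comparisons of the main counts and medians with an alternative, 172 kept their direction and their size or side of the threshold, as did 552 of 555 for the 37 genes singly on FPKM, 969 of 994 with counts included and 309 of 329 for the other named genes, and none changed direction. The number of the 37 genes called lower on FPKM was 36 to 37, and 24 to 28 on counts. With each sample scaled to the same median, the median of all genes moved from −0.17 to −0.01 on log2, and 3606 genes were lower and 3481 higher (4405 and 2876 otherwise); 36 of the 37 genes were still called lower, with a median of −0.73, 11 of them by at least 2-fold, and 10 other ribosome biogenesis genes were higher. The median of the 37 genes on FPKM was −0.74 with quantile normalization, −0.83 with the accession of the highest mean, and −0.95 to −0.86 when a replicate was left out. On counts it was −0.57 with RLE size factors, −0.78 with library size only (3059 of all genes lower and 2167 higher), −0.57 with DESeq2, −0.67 with no filter, −0.58 with genes of at most 50% shared exon bases, −0.70 with samples thinned to the smallest library, and −0.68 to −0.58 when a replicate was left out. The number of RNA polymerase III genes called higher was 1 with no filter, with the accession of the highest mean and with the replicate block, and 1 to 2 when a replicate was left out. With the replicate block, 37 genes were lower on FPKM and 26 on counts, and the calls of Polr1d (adjusted p = 0.0838) and Rrn3 (0.0592) on counts and of Rbm34 (0.0673) and Bdp1 (0.073) on FPKM were lost. Rrn3 was not called on FPKM with quantile normalization either (−0.21, adjusted p = 0.0771). On counts, single libraries decided some calls: Nop56 was lost without control replicate 1 (adjusted p = 0.053), Noc4l without shCTCF replicate 2 or 3 (0.0525 and 0.0626), Polr1d without control replicate 3 (0.273) or shCTCF replicate 2 or 3 (0.155 and 0.194), and Rrn3 without control replicate 1 or 3 (0.158 and 0.161) or any shCTCF replicate (0.0898 to 0.126). Scaling to the same median also moved Nop58, Nop10, Polr1d, Noc4l and Bysl on FPKM to between −0.33 and −0.30, Bdp1 to 0.39, and library size only moved Nop58, Nop10, Polr1d, Rrn3, Noc4l and Bysl on counts to between −0.50 and −0.40, with the calls kept. Noc4l on counts was at −0.21 without control replicate 2. Among genes not called on counts, Ubtf was at −0.61 without control replicate 1, −0.20 without control replicate 3 and −0.26 without shCTCF replicate 1, and Wdr12 at −0.11 without control replicate 1 and −0.34 with DESeq2. The causes were not tested. Precision is limited by 3 samples a group and, on counts, by control replicate 2 and by shared exons.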
